A study of Homo sapiens with 11 samples.

Results

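Epithelial-mesenchymal transition (EMT) is the shift of cells from a sheet held together by E-cadherin to a motile state with vimentin filaments and a fibronectin matrix. The 10 genes described here were taken by symbol from 28152 in the count table: the mesenchymal products VIM and FN1, the cadherins CDH1 and CDH2, the transcription factors ZEB1, ZEB2, SNAI1, SNAI2 and TWIST1, and the epithelial splicing factor ESRP1. They were measured by RNA sequencing in 11 tumours labelled as grown from BT-474, an established line from a human breast carcinoma, with the genotype given as HR+/Her2+. Several markers of that line were near 0 in every library, as given below, so its name stands here for the label only. All tumours grew in a mammary fat pad of female Athymic Nude mice, which lack a thymus and so most T cells, after injection in 50% Matrigel. Every animal also carried an estrogen pellet (0.72 mg of β-estradiol, made to last 90 days), so no group was without added estrogen. Tumours above 95 mm3 could enter the study. The 6 vehicle animals received 5% mannitol in water under the skin every 4 days, and the 5 others received evexomostat (SDX-7320, spelled SDX-7230 in 1 label field), an inhibitor of methionine aminopeptidase 2, at 12 mpk on the same schedule. All libraries are labelled day 33, and the mouse age is not given in the sources used here.

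As background, ZEB1, ZEB2, SNAI1 and SNAI2 are zinc finger repressors that bind E-boxes in the CDH1 promoter, and TWIST1 is a basic helix-loop-helix factor that acts alongside them. ZEB1 and ZEB2 are held down in epithelial cells by the miR-200 microRNAs, which the ZEB proteins in turn repress, so that the pair forms a switch between both states. ESRP1 directs epithelial splice forms of CD44, FGFR2 and CTNND1, and its gene is another ZEB1 target.

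The miR-200 sequences are shown because the switch runs through their seed, bases 2 to 8 of the mature microRNA, given in capitals (5′ to 3′, RefSeq, all 5 family members matched by name). The mature microRNAs themselves were not measured here.

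hsa-miR-141-3p: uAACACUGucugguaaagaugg
hsa-miR-200a-3p: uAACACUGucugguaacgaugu
hsa-miR-200b-3p: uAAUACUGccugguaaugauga
hsa-miR-200c-3p: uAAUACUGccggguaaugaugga
hsa-miR-429: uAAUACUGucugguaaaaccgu

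The family falls into a pair with the seed AACACUG and a trio with AAUACUG. Complements of both seeds were counted in the 3′ UTR of the longest coding transcript of each gene (GENCODE release 29, transcript strand only). For ZEB1 and ZEB2 the choice was instead the longest coding transcript that the annotation marks as principal (APPRIS tag). ZEB1 held 8 in 1938 bases, 5 CAGTATT and 3 CAGTGTT, and ZEB2 held 9 in 5370 bases, 5 and 4. Over 19094 genes 28.0% held at least 1 such word, and 10 genes (0.0524%) held 8 or more, so both ZEB transcripts lie at the far end of that range. One example of each word per gene is given below with the 7 matching bases in capitals and its first base counted from the start of the UTR. A match is a description of the sequence and was not tested as a working site.

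ZEB1 site at 369: atcttatCAGTATTatcactc
ZEB1 site at 782: tcagaatCAGTGTTtgtgatt
ZEB2 site at 392: catacatCAGTATTtttatta
ZEB2 site at 208: ttttgtaCAGTGTTaaggcct

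The libraries held 22808033 to 39249329 counts, so that 3 counts correspond to 0.0764 to 0.132 RPM (counts scaled to a common library total), a limit that covers counting error only. Vehicle replicate 001 stood apart, with its top 100 genes taking 23.9% of the total, while they took 16.2% to 17.9% elsewhere. The labels do not state that each library came from a separate animal, and p-values measure the spread between these libraries. In edgeR's quasi-likelihood test 101 of 16653 tested genes had an adjusted p under 0.05, or 0.606%. Of these 29 were higher and 72 lower under evexomostat, a split of 28 and 42 with upper quartile scaling, 34 and 28 with library totals only, and 43 and 31 or 38 and 30 with limma on RPM. BT-474 is known as a luminal line with amplified ERBB2 and hormone receptors, and most of these markers went against the label. ESR1 averaged 0.285 RPM (1 to 17 counts), PGR had 0 to 5 counts, EPCAM averaged 3.03 RPM and KRT19 0.803, and ERBB2 averaged 53.7 RPM, while KRT8 at 332 RPM and KRT18 at 149 were plentiful. The identity of the cells is thus in question, and the levels below describe the libraries labelled BT-474, not that line as known elsewhere.

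All 10 genes passed the filter on low counts, and none had an adjusted p under 0.05 in edgeR's test, against 0.606% of all tested genes (0.174% as higher and 0.432% as lower). At an unadjusted p under 0.05 there were 4, all lower under evexomostat (FN1, ZEB2, SNAI1 and SNAI2), where 13.4% of all tested genes passed and 8.55% passed as lower. That set depended on the scaling: with library totals only it was FN1 (lower), VIM and ESRP1 (both higher), with limma-trend on RPM at either pseudocount FN1 and VIM, and with upper quartile scaling FN1, ZEB2 and SNAI1. On the 8 libraries whose numbers occur in both groups, with or without a replicate block, it was FN1, ZEB2, SNAI1 (all lower) and CDH1 (higher). FN1 alone was in the set under all 22 alternatives. DESeq2 called 1 of the 10, FN1, where it called 3.9% of all tested genes. In 1 gene, again FN1, every evexomostat library lay below every vehicle library, which held for 1.64% of all tested genes, while the reverse held for 1.33%. The median log2 fold change of the 10 was -0.16, with 4 above 0 and 6 below, beside -0.04 over all tested genes.

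**Figure D1:**
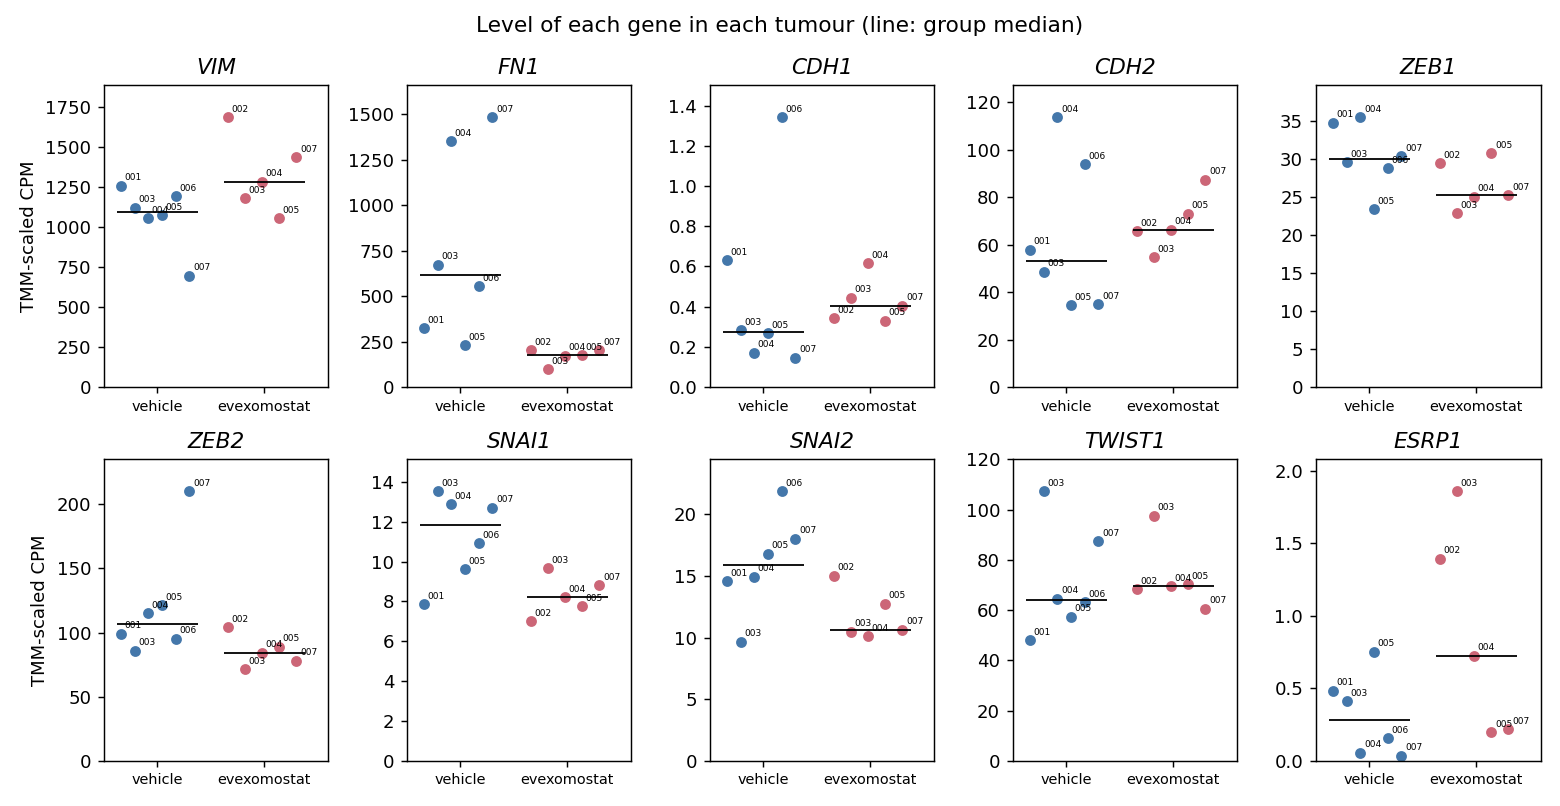
Level of each of the 10 genes in every tumour, in CPM (TMM-scaled counts per library total, linear axes from 0 that differ between panels), for 6 vehicle and 5 evexomostat libraries, with the replicate number beside each point and a line at each group median. The groups separate for FN1 and overlap for the other 9 genes, and no library exceeds 1.34 CPM for CDH1 or 1.86 CPM for ESRP1.

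FN1 encodes fibronectin, the matrix glycoprotein whose secretion is a classic mark of EMT and of wound stroma. In vehicle replicates 001, 003, 004, 005, 006 and 007 it was at 323, 673, 1352, 232, 555 and 1484 CPM. In evexomostat replicates 002, 003, 004, 005 and 007 it was at 203, 98.8, 172, 174 and 204 CPM. The vehicle tumours spread widely, with 004 and 007 highest, and the lowest of them, 005, still lay above the highest evexomostat tumour. The means were 770.0 ± 528 CPM (SD, n = 6) and 170.2 ± 42.7 (SD, n = 5). The log2 fold change was -2.18 (SE 0.45, 95% interval -3.15 to -1.20). Its adjusted p in edgeR was 0.0503, just short of the threshold, and its unadjusted p was 3.14e-04.

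The FN1 call turned on the setting while its direction did not. Of 22 alternatives 6 had an adjusted p under 0.05, and all 22 log2 fold changes were below 0, from -2.54 to -1.81. The 6 were DESeq2 (5.92e-05), limma-voom with sample quality weights (0.00849) and 4 forms of the edgeR test: with no count filter (0.0439), on the 8 libraries whose numbers occur in both groups (0.0274), without vehicle replicate 001 (0.0132) and without vehicle replicate 005 (0.0332). Over all genes these last 5 settings called 6.36%, 0.433%, 4.42%, 5.22% and 0.466%. The highest adjusted p was 0.148, in edgeR without evexomostat replicate 007. The authors' deposited table gives a log2 fold change of -2.10 for FN1 with an adjusted p of 1.39e-04. FN1 is the single one of the 10 genes under 0.05 in the authors' deposited table, where 0.952% of all symbols are.

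**Figure D2:**
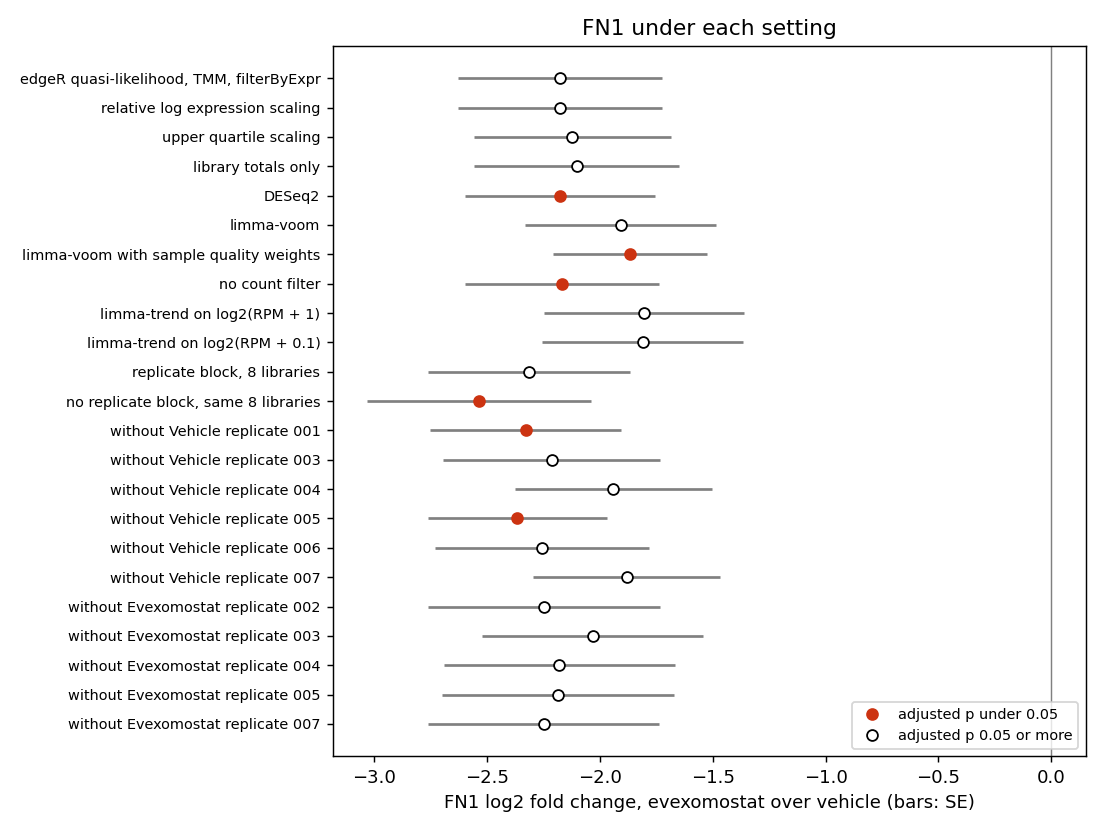
Log2 fold change of FN1 (evexomostat over vehicle, horizontal axis) with its standard error as a bar, under edgeR's quasi-likelihood test with TMM scaling (top) and each of 22 alternatives. Filled points mark an adjusted p under 0.05, and every point lies between -2.54 and -1.81.

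The FN1 promoter window is shown because FN1 had the largest log2 difference of the 10 genes. It holds the 250 bases before the RefSeq start, on the minus strand of GRCh38.p14 at chr2:215436069-215436318, which is not the build of the count table (GRCh37). Capitals mark a full cAMP response element, TGACGTCA, from position -183, and a CCAAT word from position -162, both counted back from the start.

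FN1 promoter: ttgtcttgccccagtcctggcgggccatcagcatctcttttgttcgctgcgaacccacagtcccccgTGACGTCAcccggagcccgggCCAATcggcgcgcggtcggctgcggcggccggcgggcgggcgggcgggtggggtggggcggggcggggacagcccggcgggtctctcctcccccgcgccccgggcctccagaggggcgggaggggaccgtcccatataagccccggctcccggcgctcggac

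Motifs were searched on both strands, and these do not overlap. TGACGTCA was found in 1.65% of 35116 promoter windows of the same length, and CCAAT in 32.0%. The E-box CACCTG, the word that SNAI and ZEB factors bind, had no match in the FN1 window and was found in 17.5% of windows. Binding was not measured, and a match is a description of these letters. Windows were given for 5 of the 10 genes (VIM, FN1, CDH2, ZEB1 and ZEB2).

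Fibroblasts also make fibronectin, and mouse stroma is part of these tumours. The handling of reads from the mouse host is not given in the sources used here. The 14 fibroblast markers, of which 13 were tested and 0 had an edgeR adjusted p under 0.05 (also 0 at an unadjusted p under 0.05 and 0 by DESeq2), summed to 757 to 2652 RPM under vehicle and 974 to 1604 RPM under evexomostat, so the groups overlapped. None was at 0 in all libraries and 2 of the 14 averaged below 1 RPM. The defining markers DCN (0.390 RPM) and LUM (1.05 RPM) averaged near 0. The collagens COL3A1 and COL1A1, in contrast, were at 183 to 1757 RPM and 38.5 to 253 RPM over the 11 libraries. COL3A1 alone gave 1757 of the 2652 RPM of vehicle replicate 004, so the sums lean on it. Vehicle replicate 007, highest for FN1, summed to 1235 RPM, within the evexomostat range, and vehicle replicate 004 to 2652 RPM, the highest of all. The part of stroma in the FN1 difference was not tested, and in bulk tumour RNA fewer cells of a type and less RNA per cell cannot be told apart.

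VIM encodes vimentin, the intermediate filament of mesenchymal cells. Vehicle replicates 001, 003, 004, 005, 006 and 007 held 1256, 1119, 1055, 1072, 1190 and 695 CPM. Evexomostat replicates 002, 003, 004, 005 and 007 held 1684, 1177, 1281, 1054 and 1434 CPM. The groups overlapped, vehicle 007 was well below every other tumour, and evexomostat 002 was highest. The means were 1064 ± 196 CPM (SD, n = 6) and 1326 ± 244 (SD, n = 5). The log2 fold change was 0.32 (SE 0.18, 95% interval -0.06 to 0.70, edgeR adjusted p 0.473). With a mean of 1187 RPM, VIM ranked 58 of 28152 symbols, whereas FN1 at 491 RPM ranked 243. Per kilobase of transcript VIM exceeded FN1 by 2.23 to 22.02 times in the vehicle tumours (median 9.08) and by 28.8 to 56.8 times in the evexomostat tumours (median 35.5).

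CDH1 encodes E-cadherin, the adhesion molecule of epithelial junctions. Its raw counts were 13, 11, 6, 10, 43 and 4 in vehicle replicates 001, 003, 004, 005, 006 and 007, and 11, 11, 17, 10 and 13 in evexomostat replicates 002, 003, 004, 005 and 007. E-cadherin transcripts were thus close to the detection floor in every tumour, and vehicle 006 alone exceeded 20. The means were 0.474 ± 0.459 CPM (SD, n = 6) and 0.427 ± 0.115 (SD, n = 5). The log2 fold change was -0.14 (SE 0.53, 95% interval -1.29 to 1.01, edgeR adjusted p 0.951), an interval that spans more than a doubling either way. Without vehicle replicate 006 it was 0.55, and it was above 0 in 7 of 22 alternatives, limma-voom and limma-trend on all 11 libraries among them. Its sign thus rested on the method as well as on that library. On the 8 libraries whose numbers occur in both groups, which leave out vehicle 006, it was 1.00 (edgeR unadjusted p 0.0193, adjusted p 0.127). With a replicate block it was 1.01 (edgeR unadjusted p 0.0439, adjusted p 0.238). These values rest on few counts.

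CDH2 encodes N-cadherin, the cadherin that mesenchymal cells carry in place of E-cadherin. Vehicle replicates 001, 003, 004, 005, 006 and 007 held 57.8, 48.6, 113.6, 34.5, 93.8 and 35.04 CPM. Evexomostat replicates 002, 003, 004, 005 and 007 held 65.6, 54.7, 66.2, 73.1 and 87.4 CPM. All evexomostat tumours lay inside the vehicle range, with vehicle 004 at its top and 005 and 007 at its bottom. The log2 fold change was 0.12 (SE 0.29, 95% interval -0.52 to 0.75, edgeR adjusted p 0.912), from means of 63.9 ± 32.7 (SD, n = 6) and 69.4 ± 12.0 CPM (SD, n = 5). Per kilobase CDH2 exceeded CDH1 by 78.9 to 747 times under vehicle and by 121 to 249 times under evexomostat, so N-cadherin was the more abundant cadherin transcript in all 11 tumours.

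ZEB2 encodes the more abundant of both ZEB repressors here. It was at 98.9, 85.8, 115, 121, 95.3 and 210.3 CPM in vehicle replicates 001, 003, 004, 005, 006 and 007. In evexomostat replicates 002, 003, 004, 005 and 007 it was at 104, 71.4, 84.2, 88.9 and 78.0 CPM. Vehicle 007 lay far above the rest, and the groups overlapped. The means were 121.1 ± 45.6 CPM (SD, n = 6) and 85.3 ± 12.4 (SD, n = 5), with a log2 fold change of -0.51 (SE 0.22, 95% interval -0.97 to -0.04, edgeR adjusted p 0.322). Without vehicle replicate 007 the log2 fold change was -0.28, so 1 library set much of it.

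ZEB1, whose protein represses CDH1 and ESRP1 in other systems, was even across tumours. It ranged from 23.4 to 35.4 CPM under vehicle (median 29.9) and from 22.9 to 30.7 CPM under evexomostat (median 25.2). Vehicle 001 and 004 lay above every evexomostat tumour and evexomostat 003 below every vehicle tumour, with the others intermixed. Means of 30.4 ± 4.41 (SD, n = 6) and 26.6 ± 3.29 CPM (SD, n = 5) gave a log2 fold change of -0.19 (SE 0.14, 95% interval -0.48 to 0.11, edgeR adjusted p 0.619). Transcripts of the miR-200c and miR-141 host gene MIR200CHG were at 0 or 1 count in every library.

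SNAI1 encodes Snail, a repressor whose protein is short-lived. It was at 7.85, 13.5, 12.9, 9.63, 10.9 and 12.7 CPM in vehicle replicates 001, 003, 004, 005, 006 and 007, and at 7.01, 9.67, 8.22, 7.78 and 8.83 CPM in evexomostat replicates 002, 003, 004, 005 and 007. Vehicle 001 lay inside the evexomostat range and vehicle 005 just below its top, while the other 4 vehicle tumours lay above it. The log2 fold change was -0.44 (SE 0.17, 95% interval -0.82 to -0.07, edgeR adjusted p 0.287), from 11.3 ± 2.21 (SD, n = 6) to 8.30 ± 1.01 CPM (SD, n = 5). It had an adjusted p under 0.05 in 1 of 22 alternatives, limma-voom with sample quality weights, at 0.0296. That setting called 6.36% of all tested genes, against 0.606% in the main edgeR test. Without vehicle replicate 001, the library that stood apart, the log2 fold change was -0.52 and the edgeR adjusted p 0.0562. Without that library edgeR called 5.22% of the genes tested.

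SNAI2 encodes Slug, the Snail relative of basal breast and neural crest cells. It was at 14.6, 9.67, 14.9, 16.8, 21.9 and 18.04 CPM in the vehicle tumours and at 15.01, 10.5, 10.1, 12.8 and 10.7 CPM in the evexomostat tumours, in the same replicate order. Vehicle 003 was the lowest of all 11, so the groups overlapped. Means of 16.0 ± 4.07 (SD, n = 6) and 11.8 ± 2.07 CPM (SD, n = 5) gave a log2 fold change of -0.44 (SE 0.20, 95% interval -0.87 to -0.01, edgeR adjusted p 0.364).

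TWIST1 ranged from 48.0 to 107 CPM under vehicle (median 63.8), where replicate 003 was highest, and from 60.6 to 97.5 CPM under evexomostat (median 69.6), where replicate 003 was again highest. The evexomostat tumours lay inside the vehicle range. Means of 71.3 ± 21.96 (SD, n = 6) and 73.3 ± 14.1 CPM (SD, n = 5) gave a log2 fold change of 0.04 (SE 0.20, 95% interval -0.40 to 0.47, edgeR adjusted p 0.964).

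ESRP1, the epithelial splicing regulator, was the most variable of the 10 by the SD of log2 CPM (1.38, next to 1.28 for FN1). Its raw counts were 10, 16, 2, 28, 5 and 1 in vehicle replicates 001, 003, 004, 005, 006 and 007, and 45, 46, 20, 6 and 7 in evexomostat replicates 002, 003, 004, 005 and 007. Evexomostat 002 and 003 exceeded every vehicle tumour, whereas 005 and 007 lay among the low vehicle values. The means were 0.317 ± 0.283 CPM (SD, n = 6) and 0.880 ± 0.734 (SD, n = 5). The log2 fold change was 1.44 (SE 0.71, 95% interval -0.09 to 2.97, edgeR adjusted p 0.406), and the difference was not beyond the spread between tumours. Its paralog ESRP2 averaged 0.553 RPM with a log2 fold change of -0.10 (edgeR adjusted p 0.947).

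**Figure D3:**
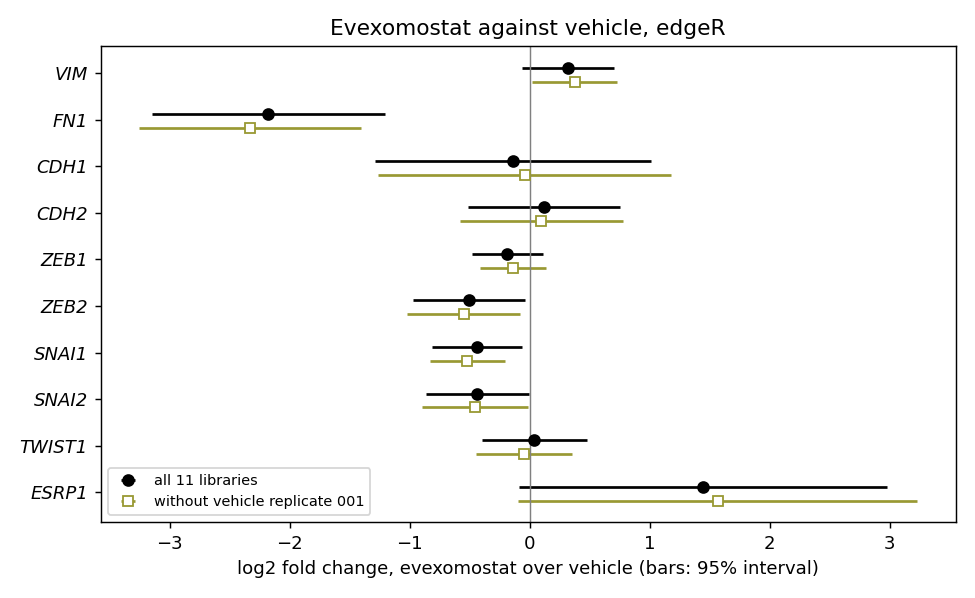
Log2 fold change (evexomostat over vehicle, horizontal axis) of each of the 10 genes from edgeR, with its 95% interval as a bar, over all 11 libraries (filled circles) and without vehicle replicate 001 (open squares). FN1 lies farthest from 0, at -2.18 and -2.33, and the intervals of CDH1 and ESRP1, the genes with the fewest counts, are the widest.

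Divided by the length of the longest coding transcript, levels can be set side by side between genes. The handling of mouse reads is not given, so each of these levels, not that of FN1 alone, could hold reads of the host. VIM led at 633 ± 133 CPM per kilobase (SD, n = 11), followed by FN1 at 55.9 ± 54.8 and TWIST1 at 43.3 ± 10.8. CDH2 came next at 15.3 ± 5.65 and ZEB2 at 10.9 ± 3.97, then SNAI1 at 5.88 ± 1.36, SNAI2 at 5.80 ± 1.58 and ZEB1 at 4.57 ± 0.674. ESRP1 at 0.150 ± 0.154 and CDH1 at 0.0926 ± 0.0682 were last, so the epithelial pair stood far below all mesenchymal genes in every tumour. Neighbours in that order were often not separated: FN1 exceeded TWIST1 in 5 of 11 tumours, SNAI1 exceeded SNAI2 in 6, and ESRP1 exceeded CDH1 in 5. With the median transcript length instead, ZEB2 (20.3) came above CDH2 (16.5) and SNAI2 (6.35) above SNAI1 (5.88). TWIST1 exceeded SNAI1 per kilobase by 5.07 to 8.02 times under vehicle and 6.95 to 10.2 times under evexomostat.

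**Figure D4:**
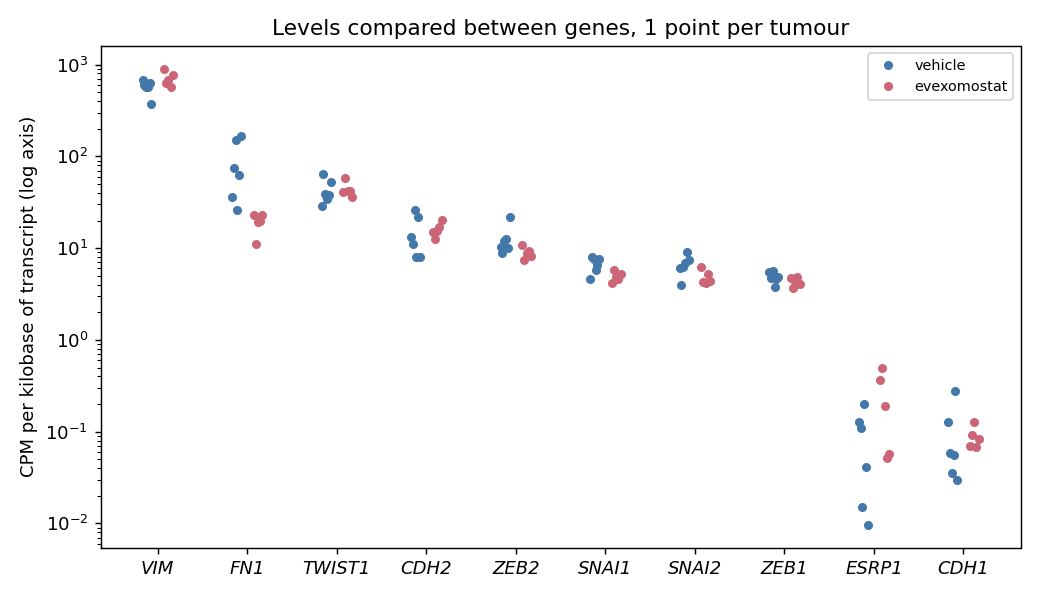
Levels per kilobase of the longest coding transcript (CPM per kilobase, log axis) for the 10 genes, 1 point per tumour, ordered by their mean. VIM is on top at a mean of 633, and ESRP1 and CDH1 lie at the bottom with means of 0.150 and 0.0926.

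The tumours differed in which of the genes they carried most of. Vehicle 007 had the highest FN1 and ZEB2 and the lowest VIM, CDH1 and ESRP1 of all 11 libraries. Its ranks for CDH1 and ESRP1 rest on 4 counts and 1 count, next to 6 and 2 in vehicle 004. Evexomostat 003 had the lowest FN1, ZEB1 and ZEB2 and the highest ESRP1. The coefficient of variation was larger among vehicle than among evexomostat tumours in 10 of the 10 genes, and in 80.8% of all tested genes. Without vehicle replicate 001 these figures were 10 of 10 and 62.9%. Over all 11 libraries the coefficient of VIM was all but tied, at 18.395% under vehicle and 18.386% under evexomostat. Those of ZEB1 (14.5% and 12.4%) and ESRP1 (89.2% and 83.5%) were close. The 4 genes with an SD of log2 CPM of at least 0.5 were compared with every other tested gene by the root mean square difference of centred log2 CPM over the 11 libraries, a description with no test. Nearest to FN1 were SOX5 (0.48), DEPP1 (0.56) and EGLN3 (0.56). SOX5 was picked for its likeness to FN1 over these same libraries, so its group difference comes in part from that choice. SOX5 fell, with means of 3.67 ± 1.65 CPM in 6 vehicle and 1.17 ± 0.175 CPM in 5 evexomostat tumours and no overlap of the groups. Its log2 fold change was -1.64, at an adjusted p of 0.0462 in edgeR. It was under 0.05 in 7 of 22 alternatives, and not without vehicle replicate 003, 004, 006 or 007 or any 1 evexomostat replicate. Nearest to CDH2 were HMGCLL1 (0.19), SAMD4A (0.25) and ST18 (0.29), and nearest to CDH1 were ZNF582 (0.28), LINC00896 (0.33) and CHRNE (0.36). ESRP1 had no close neighbour, the nearest being NOXA1 at 0.76, SOX8 at 0.83 and TNFRSF4 at 0.86. With 1 to 46 counts per library for ESRP1 and 4 to 43 for CDH1, the differences of both genes include counting noise.

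Over all tested genes 13.4% had an unadjusted p under 0.05 in edgeR and DESeq2 called 3.9%. Their median log2 fold change was -0.04. Among 20 other classical and related cadherins 8 were tested and 0 had an edgeR adjusted p under 0.05. Of these 8 cadherins 3 had an unadjusted p under 0.05, DESeq2 called 2, and the median log2 fold change was 0.32. The most abundant were CDH13, a cadherin held by a lipid anchor, at 28.5 RPM, CDH24 at 27.0 RPM and CDH11, of mesenchyme and bone, at 20.5 RPM. CDH3, the P-cadherin of basal epithelium, averaged 0.695 RPM, and the endothelial cadherin CDH5 had 0 to 2 counts. The catenins that tie cadherins to actin were plentiful all the same, with CTNNA1 at 314 RPM, VCL (vinculin) at 291 and CTNNB1 at 280. Of 12 tested catenins and partners 0 passed in edgeR, 1 had an unadjusted p under 0.05, DESeq2 called 0, and the median was -0.19.

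Of 29 tested genes of epithelial junctions and polarity 0 had an edgeR adjusted p under 0.05, with a median log2 fold change of -0.05. In this list 7 had an unadjusted p under 0.05, beside 13.4% of all tested genes, and DESeq2 called 1, beside 3.9%. TJP1 (ZO-1) averaged 134 RPM, and the desmosomal genes DSP and DSG2 averaged 133 and 122 RPM. DSG2 was below in every evexomostat tumour, at 99.5 ± 11.3 CPM (SD, n = 5) against 140.3 ± 24.3 (SD, n = 6), a log2 fold change of -0.50 (edgeR adjusted p 0.137). TJP1, DSP and DSG2, the most abundant of this list, were thus plentiful in tumours where E-cadherin transcripts were close to the floor. That did not hold for the whole list. Of its 34 genes with a symbol in the counts, 6 averaged below 1 RPM, and EPCAM averaged 3.03 RPM.

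Among 12 tested epithelial regulators 1 passed, KLF5, a zinc finger factor of basal and gut epithelium, beside 0.606% of all tested genes. In this list 4 had an unadjusted p under 0.05, beside 13.4% of all tested genes, and DESeq2 called 2, beside 3.9%. Log2 fold changes were below 0 in 11 of 12, beside 9226 of 16653 over all tested genes. The list median was -0.24, beside -0.04. KLF5 was at 54.1, 44.2, 68.4, 42.5, 40.4 and 39.4 CPM in vehicle replicates 001, 003, 004, 005, 006 and 007, and at 18.5, 23.7, 24.6, 23.5 and 28.4 CPM in evexomostat replicates 002, 003, 004, 005 and 007. Every evexomostat tumour lay below every vehicle tumour. KLF5 fell by 1.02 on the log2 scale (SE 0.17), with means of 48.1 ± 11.2 CPM (SD, n = 6) and 23.8 ± 3.52 (SD, n = 5), and edgeR gave an adjusted p of 0.0233. The adjusted p was 0.0550 to 0.0800 when any 1 of the 5 evexomostat replicates (002, 003, 004, 005 or 007) was left out, and under 0.05 in 16 of 22 alternatives. RBM47, an epithelial RNA-binding protein, was at 63.9 ± 30.7 against 32.6 ± 10.5 CPM and did not pass (log2 fold change -0.97, edgeR adjusted p 0.174). KLF4 averaged 139 RPM with a log2 fold change of -0.30. The epithelial master regulators GRHL2 (0 to 2 counts), OVOL2 (0 to 3) and ELF5 (0 to 1) were at the floor.

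Of 33 other tested EMT regulators 0 had an edgeR adjusted p under 0.05, 5 had an unadjusted p under 0.05 and DESeq2 called 0, with a median of -0.06. The most abundant were ETS1 (124 RPM), the splicing factor QKI (123 RPM) and the Hippo pathway coactivator YAP1 (115 RPM). Of 35 mesenchymal effectors 1 passed, beside 0.606% of all tested genes, with a median of -0.15. Among these effectors 9 had an unadjusted p under 0.05, beside 13.4% of all tested genes, and DESeq2 called 2, beside 3.9%. The gene that passed was TGFBI, a matrix protein induced by TGF-beta, and it went in the direction opposite to that of FN1. TGFBI was at 27.6, 15.9, 17.9, 28.7, 51.0 and 30.1 CPM in the vehicle tumours and at 107.9, 72.6, 72.6, 112.9 and 142.1 CPM in the evexomostat tumours, in the same replicate order. All evexomostat tumours lay above all vehicle tumours. TGFBI rose, and its log2 fold change was 1.83 with an SE of 0.28 and an edgeR adjusted p of 0.0173. Its adjusted p was 0.0634, 0.0609 and 0.0654 without evexomostat replicate 002, 005 and 007, and under 0.05 in 19 of 22 alternatives. CD44 (832 RPM), LGALS1 (753 RPM) and S100A4 (631 RPM) were the most abundant effectors, with log2 fold changes of -0.55, 0.14 and -0.42 (edgeR adjusted p 0.383, 0.888 and 0.541).

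**Figure D5:**
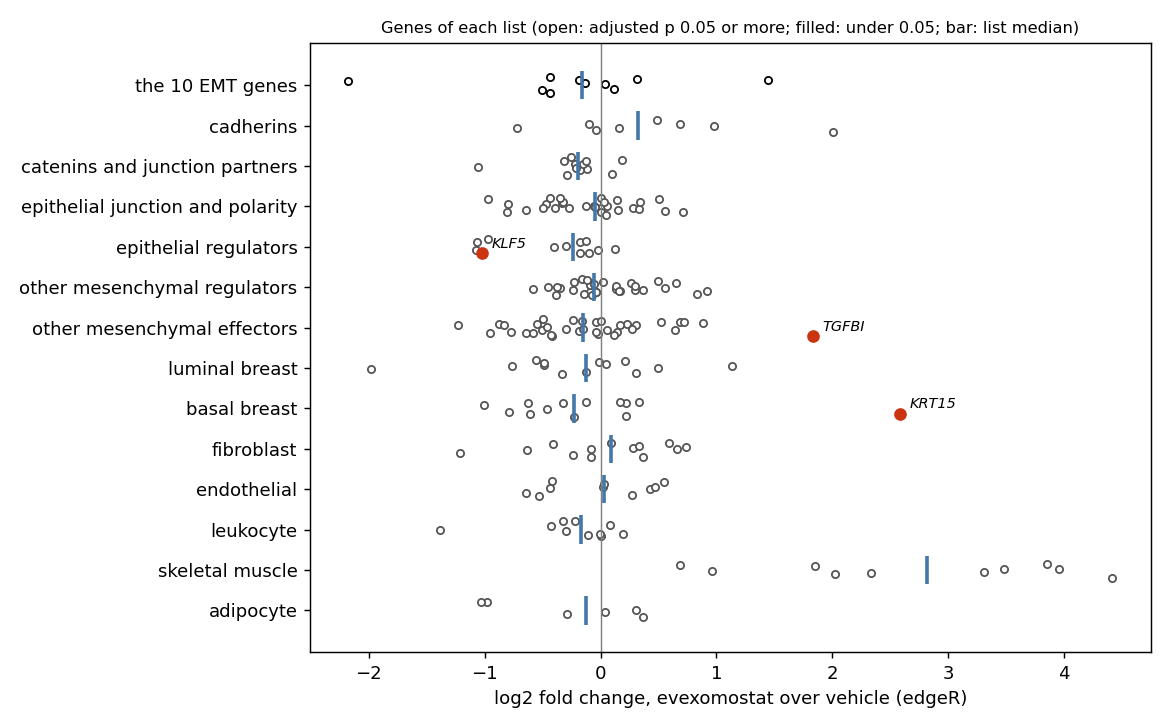
Log2 fold changes (evexomostat over vehicle, horizontal axis) of the tested genes of each list, 1 point per gene, with the list median as a bar and genes with an edgeR adjusted p under 0.05 filled. The lists centre near 0 apart from skeletal muscle, at a median of 2.82, and the filled points are KLF5, TGFBI and KRT15.

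Markers of other cells gave the setting for these levels. Over all tested genes 0.606% had an edgeR adjusted p under 0.05, 13.4% an unadjusted p under 0.05, and DESeq2 called 3.9%. Luminal genes had 0 of 13 tested past an edgeR adjusted p of 0.05 (1 at an unadjusted p under 0.05, 0 called by DESeq2). Basal genes had 1 of 13 (1 at an unadjusted p under 0.05, 1 called by DESeq2), KRT15, which rose and had 3 to 16 counts under vehicle and 16 to 76 under evexomostat. Its log2 fold change was 2.58 with an SE of 0.51 and an edgeR adjusted p of 0.0462, and it passed in 12 of 22 alternatives. It did not pass without vehicle replicate 003, 005, 006 or 007 or without any 1 evexomostat replicate, at adjusted p-values of 0.0693 to 0.117. Endothelial markers summed to 27.9 to 41.4 RPM under vehicle and 37.4 to 47.7 under evexomostat, leukocyte markers to 122 to 179 and 105 to 170, with CD3E at 0 throughout, and adipocyte markers to 44.4 to 113 and 44.8 to 75.6, with ADIPOQ at 0 throughout. These are counts of human symbols, and the handling of mouse reads is not given. Low sums thus do not measure how many such host cells the tumours held. Skeletal muscle markers had 10 of 10 tested log2 fold changes above 0, beside 7427 of 16653 over all tested genes. Of these markers 0 were past the threshold in edgeR (7 at an unadjusted p under 0.05, 2 called by DESeq2). The muscle markers summed to 585 RPM in evexomostat replicate 005 but to 8.41 to 73.1 RPM elsewhere. FN1 without evexomostat replicate 005 had a log2 fold change of -2.19 (edgeR adjusted p 0.140), about the same size as with it. Evexomostat replicates 003 and 004, which stayed in that fit, also had muscle sums (37.5 and 73.1 RPM) above every vehicle library (at most 32.0 RPM). The part of muscle in the FN1 difference was not tested.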

How the data were processed

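Groups and replicate numbers came from the sample titles, and table columns were matched to samples by the code in the sample description. Per the submitters' processing notes, reads were handled with bcl2fastq 2.17, STAR 2.7.5c, featureCounts (Subread) and edgeR on GRCh37/hg19. What the authors set in their test, whether strand was used and how mouse reads were treated are not given in the sources used here, so a gene sharing sequence with a paralog, an overlapping gene or a mouse gene could be counted in part with it.

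The authors deposited raw read counts per gene symbol and RPM values, which equal each count divided by its library total and scaled to the same sum, by a check of the table. The authors' deposited table of the comparison holds p-values, adjusted p-values and log2 fold changes for all genes, per the file headers.

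Here, counts were filtered with filterByExpr (minimum count 10, minimum total 15), scaled by TMM factors and compared with edgeR 4.0.16 (quasi-likelihood F-test, R 4.3.3, no covariate), with Benjamini-Hochberg adjustment over 16653 genes and a threshold of 0.05. CPM are these scaled counts, with SD over libraries, and log2 CPM used a prior count of 2. Lengths came from GENCODE release 29. Alternatives were other scalings, DESeq2 1.42.0, limma 3.58.1 (voom with and without quality weights, and trend on log2(RPM + 1) and log2(RPM + 0.1)), no filter, a replicate block on 8 libraries, and leaving out each library. The fits were tested on simulated data. All 55 pairs of libraries differed by more than sampling noise (chi-square at least 15.5 per degree of freedom).

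The 10 genes, the 13 lists (cadherins, catenins, epithelial junctions, epithelial regulators, mesenchymal regulators and effectors, luminal, basal, fibroblast, endothelial, leukocyte, skeletal muscle, adipocyte) and the tests were chosen with earlier results of these data known. Genes named from a list are those with an adjusted p under 0.05 and the 3 most abundant, and up to 3 nearest genes were named for each variable gene. Further list genes were named after their values were seen, where a count or a level turned on them.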

Additional observations from a re-analysis of the deposited data

Results flagged for a closer look

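The top and the bottom value of each group were compared with the group's other values for the 10 genes. Of these 40 comparisons 3 stood apart by Dixon's criterion, where chance gives about 1 in 20 groups. VIM in vehicle replicate 007, at 695.4 CPM, was lower than the other 5 vehicle tumours. ZEB2 in the same library, at 210.3 CPM, was higher than the other 5. TWIST1 in evexomostat replicate 003, at 97.5 CPM, was higher than the other 4 evexomostat tumours.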

How the results depend on the processing

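The total of 101 genes past the threshold, 29 higher and 72 lower, moved by over 1.5 times under several settings. With DESeq2 it was 649 (200 higher, 449 lower), with voom quality weights 1059 (384 and 675), and on the 8 libraries without a block 733 (225 and 508). Library totals alone gave 62 genes (28 lower), upper quartile scaling 42 lower, and limma-trend on RPM 31 lower at a pseudocount of 1 and 30 at 0.1. Those last settings moved the median log2 fold change of all genes by 0.11 and 0.14. Leaving out 1 library gave 1 to 865 genes (1 to 328 higher, 0 to 537 lower). There were 865 without vehicle replicate 001 and 1 when evexomostat replicate 005 was dropped, a comparison with 1833 genes under 0.05 before adjustment in edgeR.

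Of the 10 genes, DESeq2 called 1, quality weights 2, no count filter 1 and the 8 libraries without a block 1, and leaving out a library gave 0 to 1. Same-numbered libraries of both groups were not clearly alike: correlations of their deviations were -0.27, 0.07, 0.05 and -0.10. Libraries with different numbers were not compared in this way, so whether the numbers pair the tumours was not tested. With the replicate block on these 8 libraries 107 genes passed (24 higher, 83 lower) and none of the 10.

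Reversed signs occurred only for genes with a log2 fold change near 0. CDH1 was at 0.27 with voom, 0.38 with quality weights, 0.026 and 0.24 with limma-trend at pseudocounts 1 and 0.1, 1.01 with the replicate block and 1.00 on the same libraries without it, and at -0.32 to 0.55 when 1 library was left out. TWIST1 was at -0.056 with quality weights, -0.073 with the replicate block and -0.095 without it, and at -0.085 to 0.19 when 1 library was left out. CDH2 was at -0.0061 to 0.36 when 1 library was left out. The causes were not tested. Counts were lowest for CDH1 and ESRP1, with 1 to 46 per library.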
